A study of Mus musculus with 16 samples.

Results

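Forebrain projection neurons of the basolateral amygdala (BLA) and of the gustatory cortex (GC) were compared by 37 transcription factors and cofactors that pattern the pallium or set the identity of cortical and amygdala projection neurons. The members were taken by gene name from both deposited tables, which list 31020 gene names, and all 37 were found, each on a single row. The libraries came from YFP+ neurons of male YFP-H mice (B6.Cg-Tg(Thy1-YFP)HJrs/J) at postnatal day 60 to 80. CTA mice drank 0.5% saccharin for 30 min and were then injected with 0.15 M LiCl at 2% of body weight, which pairs the taste with malaise (conditioned taste aversion). Taste control mice drank the same saccharin and received saline. At 4 hr after training neurons were picked by hand from slices and their RNA was amplified, giving 4 libraries each of CTA BLA, taste control BLA, CTA GC and taste control GC. All 16 libraries carry the transgene, whose Thy1 promoter selects which neurons are labeled, in the BLA the projection neurons (BLApn) of its anterior part and in the GC pyramidal cells that the study places in layer 5.

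Cortical projection neurons take their laminar and target identity from a set of factors that repress one another during development. Fezf2 and Bcl11b direct neurons toward subcerebral targets, Tbr1 and Sox5 mark early-born deep layers, Cux factors go with upper layer fates, and Rorb with layer 4. The excitatory neurons of the BLA arise from lateral and ventral pallium and share part of this program, including Tbr1 and the Neurod factors, with the cortex. Many of the factors are still transcribed in adult neurons, where they are used as markers of cell type.

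Each library was scaled to the same total in TPM, a unit of relative transcript abundance that is per transcript length and keeps no read counts, so the depth of a library is unknown. Entries above 0 numbered 15850 to 17202 in the 8 BLA libraries and 17982 to 18340 in the 8 GC libraries, 2 ranges that did not overlap, and their part in the results between regions was not tested. None of 171 ribosomal protein, proteasome and respiratory chain genes of at least 30 TPM was listed at 0 in any library. Slc17a7, the vesicular glutamate transporter of cortical and basolateral projection neurons, ranged from 644 to 802 TPM in BLA and from 742 to 961 TPM in GC libraries. These ranges overlapped, and Slc17a7 was called lower in BLA (log2 difference, BLA minus GC, of -0.30, adjusted p = 0.0109 in limma). The GABA-synthesizing enzymes Gad1 and Gad2 differed in opposite directions between regions, and neither was called. Gad1 ranged from 0.03 to 10.3 TPM in BLA and from 0.14 to 14.9 TPM in GC libraries (log2 difference, BLA minus GC, of -0.90, adjusted p = 0.325 in limma), and Gad2 from 2.16 to 33.1 TPM in BLA and from 0.10 to 15.3 TPM in GC (1.49, adjusted p = 0.119). The vesicular GABA transporter Slc32a1 reached 10.4 TPM in BLA and 5.01 TPM in GC, and the interneuron peptide Sst 94.5 TPM in BLA and 31.8 TPM in GC. Of 14 interneuron markers tested, 3 were called higher in BLA and 5 lower, against 4.12% and 15.2% of all genes tested. The most abundant were Cck, called lower in BLA (2573 to 4255 TPM in BLA and 4642 to 7387 TPM in GC, adjusted p = 0.000324 in limma), and Npy. Npy was called higher (127 to 452 TPM in BLA and 33.9 to 322 TPM in GC, adjusted p = 0.026 in limma). The labels give no date or run for a library, so region and any separate handling of the 2 regions cannot be told apart. In sorted pools of this kind, fewer cells that express a gene and less of its RNA per cell cannot be told apart either.

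Promoter sequences were taken from RefSeq (GRCm38.p6), where 31 of the 37 members matched by symbol. Where a gene had several annotated starts, only the most upstream was kept. Whether these neurons use that start is not known, so CpG counts and motifs describe that start alone. The 250 bases before the start are shown for a pair of paralogs that differed in opposite directions between the regions (Tshz2 and Tshz3), for Nr2f2, high in BLA, and for Meis2, near 0 in most BLA libraries, with CpG dinucleotides in capitals. Tshz2 lies at chr2:169632259-169632508, plus strand, Tshz3 at chr7:36697868-36698117, plus strand, Nr2f2 at chr7:70366747-70366996, minus strand, and Meis2 at chr2:116064620-116064869, minus strand.
Tshz2: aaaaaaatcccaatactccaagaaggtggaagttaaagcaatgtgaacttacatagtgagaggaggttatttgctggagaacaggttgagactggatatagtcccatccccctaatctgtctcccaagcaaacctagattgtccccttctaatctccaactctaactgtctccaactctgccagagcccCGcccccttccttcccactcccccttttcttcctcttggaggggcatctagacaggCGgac
Tshz3: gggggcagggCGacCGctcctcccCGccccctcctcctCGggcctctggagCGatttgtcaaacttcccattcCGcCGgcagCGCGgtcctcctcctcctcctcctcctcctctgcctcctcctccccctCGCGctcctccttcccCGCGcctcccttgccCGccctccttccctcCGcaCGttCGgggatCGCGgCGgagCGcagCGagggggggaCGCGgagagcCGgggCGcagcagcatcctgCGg
Nr2f2: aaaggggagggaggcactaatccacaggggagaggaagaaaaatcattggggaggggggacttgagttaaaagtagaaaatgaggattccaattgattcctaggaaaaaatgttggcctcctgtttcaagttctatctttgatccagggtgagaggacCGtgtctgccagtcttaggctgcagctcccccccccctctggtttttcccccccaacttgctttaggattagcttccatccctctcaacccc
Meis2: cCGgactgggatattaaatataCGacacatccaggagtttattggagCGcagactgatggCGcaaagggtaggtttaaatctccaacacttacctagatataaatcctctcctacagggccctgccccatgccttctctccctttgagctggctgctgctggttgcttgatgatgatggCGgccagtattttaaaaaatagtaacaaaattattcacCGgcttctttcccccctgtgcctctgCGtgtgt

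Over the whole window of 300 bases (250 before the start and 50 after it), the Tshz3 promoter held 33 CpG dinucleotides and that of Tshz2 held 2, with GC contents of 76% and 52%. Nr2f2 had 2 and Meis2 had 13 in the same window. The 31 members with a promoter had a median of 18 CpG, against 7 over 1 promoter for each of 27025 genes. The median was 9.5 for the 6 with a promoter that were higher in BLA, 20 for the 15 that were lower, and 12.5 for the 10 that were not called. Letters of 4 motifs were searched on both strands. CANNTG, the E-box bound by basic helix-loop-helix factors, was in 17 of the 31 promoters and in 72.1% of all promoters, and TTGGCA, an NFI half-site, was in 5 of 31 and in 14.4% of all. AGGTCA, a nuclear receptor half-site, and ATGCAAAT, the octamer of POU factors, were in none of the 31, against 16% and 1.8% of all promoters. These matches describe letters only.

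In both regions 18 of the 37 members averaged at least 30 TPM, against 16.7% of all 31469 entries of the tables in BLA and 17.9% in GC. On the TPM scale the most abundant in BLA were Lmo4 and Lmo3, LIM-only cofactors, at 631 ± 158 and 497 ± 60.7 TPM (SD, n = 8), followed by Etv1, Mef2c, Neurod6 and Nr2f2. In GC they were Lmo4 at 409 ± 75.6, Mef2c at 399 ± 92.4, Id2 at 281 ± 70.9 and Lmo3 at 235 ± 46.2 TPM. Lmo4 and Mef2c did not differ beyond their spread in GC, nor did Id2 and Lmo3. No member averaged under 1 TPM in GC, whereas 5 did in BLA, namely Foxp2, Pou3f1, Pou3f2, Pou3f3 and Meis2. The members summed to 2307 to 3112 TPM in BLA and to 2408 to 3174 TPM in GC libraries, ranges that overlapped.

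**Figure D1:**
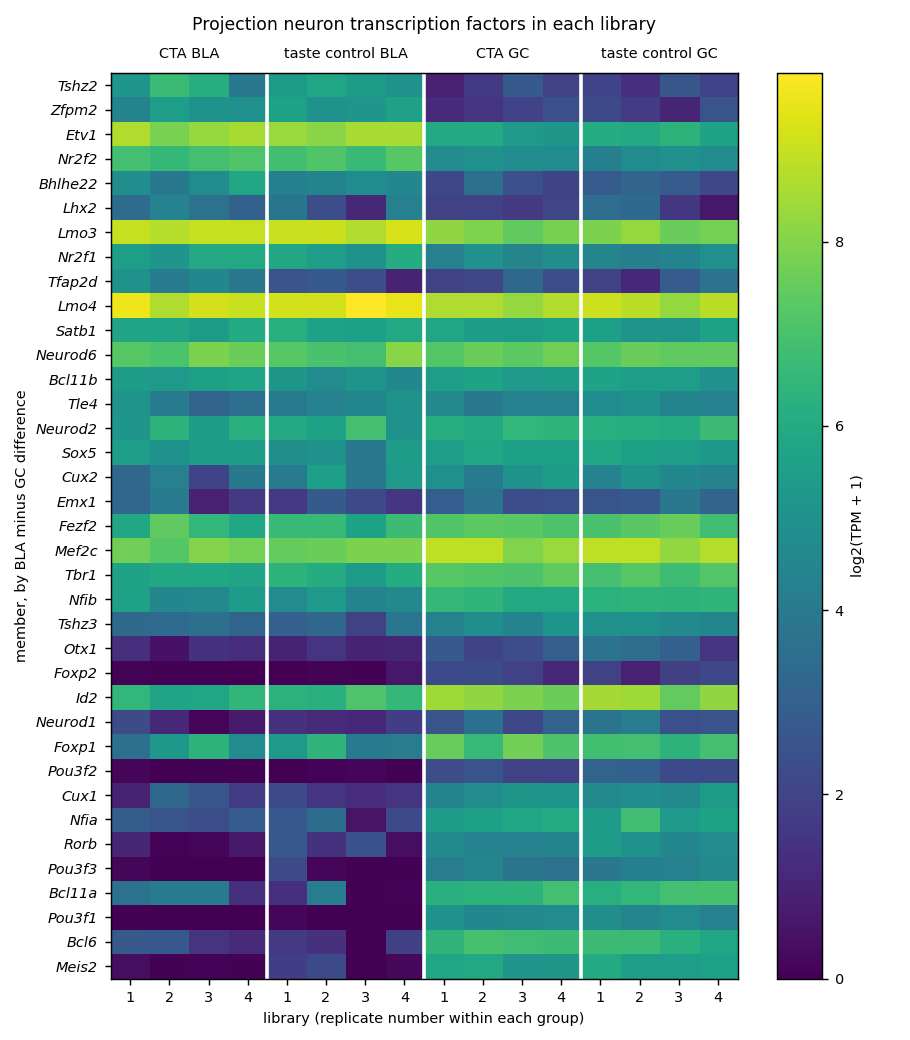
Heat map of log2(TPM + 1) for the 37 members (rows, ordered by the BLA minus GC difference) in the 16 libraries (columns, 4 per group). The upper rows are brighter in the 8 BLA libraries and the lower rows in the 8 GC libraries, where the 5 members that averaged under 1 TPM in BLA all averaged above 1 TPM.

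Between regions, 27 of the 37 members were called in limma on log2(TPM + 1), 8 higher and 19 lower in BLA, at a Benjamini-Hochberg adjusted p under 0.05 over all 15191 genes tested. Of all genes, 19.3% were called, 4.12% as higher and 15.2% as lower. The members had a median log2 difference of -0.79, against -0.23 over all genes. All 37 passed the filter on low values (a mean of 1 TPM), but Foxp2, Pou3f1, Pou3f2, Pou3f3 and Meis2 did so only through GC and so had to differ, and all 5 are among the 19 lower. The 8 BLA and 8 GC libraries did not overlap for 21 members, against 5.91% of all genes tested, 7 of them higher (1.32% of all) and 14 lower (4.59% of all). Fold-changes are on the log2(TPM + 1) scale and understate the change of low genes. Median-ratio rescaling moved the median of all genes by 0.19 and quantile normalization by 0.26, and split the called genes into 1133 higher and 1441 lower, or 1058 and 1387, against 626 and 2307 without rescaling. The members were split into 9 higher and 18 lower, or 10 and 18, under these scalings. Relative to the median of all genes, the smallest called differences were 0.84 for Lmo4 and -0.55 for Fezf2.

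**Figure D2:**
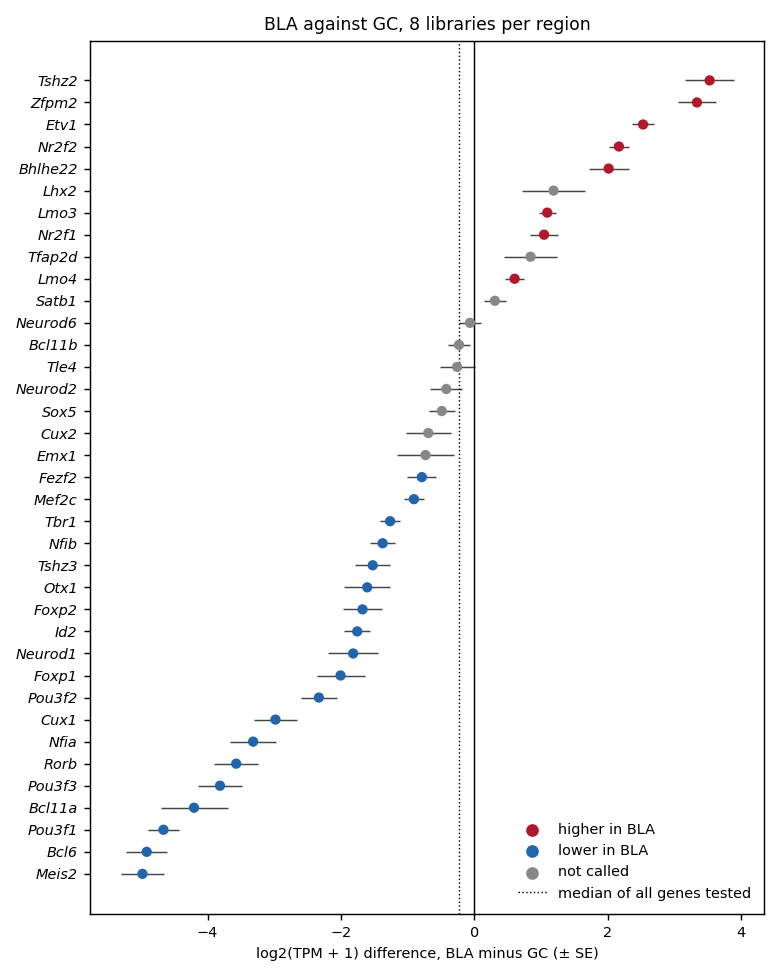
Difference in log2(TPM + 1), BLA minus GC, with its SE for each of the 37 members (8 libraries per region). Red points were called higher in BLA, blue points lower, gray points were not called, and the dotted line is the median of all genes tested (-0.23).

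Among the 7 factors of subcerebral and layer 5 output neurons, 1 was higher in BLA, 4 were lower and 2 were not called. Beside this count and those of the other roles, 4.12% of all genes tested were higher and 15.2% lower. Etv1, an ETS factor used as a marker of layer 5 cortex, was the one that was higher, with 231, 345 and 404 TPM (lowest, median and highest of 8) in BLA and 36.2, 62.8 and 81 TPM in GC. Every BLA library was above every GC library, and the means differed 5.77-fold (log2 difference 2.53 ± 0.16 SE, adjusted p = 4.27e-09). Bcl6, a repressor of Notch targets during cortical neurogenesis, had 0, 2.02 and 5.72 TPM in BLA against 55, 104 and 123 TPM in GC (-4.91 ± 0.31, adjusted p = 3.04e-09). Its lowest GC library was above the highest BLA library, and 1 BLA library listed it at 0.

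Bcl11a, a zinc finger factor that restrains subcerebral identity in deep layers, had 0.05, 6.64 and 16.6 TPM in BLA and 73, 85.1 and 123 TPM in GC (-4.20 ± 0.50, adjusted p = 7.48e-06). It was the least even member within BLA, with an SD of 1.63 on the log2 scale, and 4 BLA libraries were above 10 TPM while the other 4 were below 2 TPM. Fezf2, the selector of corticospinal fate, averaged 91.1 ± 39.2 TPM in BLA and 148 ± 23.8 TPM in GC, and its BLA range of 51.1 to 171 TPM overlapped the GC range of 111 to 187 TPM (-0.79 ± 0.22, adjusted p = 0.0152). Fezf2 was not called with CTA libraries only (-0.82), with taste control libraries only (-0.75) or after median-ratio rescaling (-0.57). Otx1, a homeobox factor of deep layer neurons, was low in both regions at 0.39, 1.23 and 1.87 TPM in BLA and 1.84, 6.29 and 12.5 TPM in GC (-1.61 ± 0.34, adjusted p = 0.00238). The highest BLA library lay just above the lowest GC library, and Otx1 was not called after quantile normalization (-1.03), in CTA libraries only (-1.38) or in taste control libraries only (-1.83).

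Bcl11b, which shapes the axons of subcerebral neurons, and Sox5, which times the birth of deep layer neurons, were not called. Bcl11b averaged 37 ± 9.78 TPM in BLA and 42.6 ± 6.37 TPM in GC, a log2 difference of -0.23 that ran from -0.55 to 0.10 at 2 SE to either side and whose sign turned in CTA libraries only (0.04). Sox5 averaged 34.7 ± 10.2 TPM in BLA and 47.1 ± 7.02 TPM in GC, with -0.88 to -0.10 at 2 SE (adjusted p = 0.0927). Sox5 was called when taste control BLA 4 was left out (-0.59). BLA and GC libraries overlapped for Bcl11b and Sox5, unlike for Bcl11a, the paralog of Bcl11b.

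The 4 factors of layer 6 and early-born neurons were split. Zfpm2, a multi-zinc-finger partner of GATA factors, had 20, 33.2 and 48.6 TPM in BLA and 1.05, 2.61 and 4.81 TPM in GC, with no overlap (3.34 ± 0.28, adjusted p = 1.34e-07). Tbr1, the T-box factor of corticothalamic identity, was expressed in both regions at 40.3, 57 and 80.9 TPM in BLA and 109, 145 and 170 TPM in GC (-1.26 ± 0.14, adjusted p = 4.83e-06), again with no overlap. Foxp2, a forkhead factor of layer 6 neurons, had 0, 0.045 and 0.56 TPM in BLA and 0.89, 2.76 and 3.88 TPM in GC (-1.68 ± 0.29, adjusted p = 0.000409). It was listed at 0 in 3 BLA libraries and was not called in taste control libraries only (-1.51), and its GC level was itself the lowest of the members. Foxp2 passed the filter only through GC and so could only come out lower. Tle4, a Groucho corepressor of layer 6, averaged 19.5 ± 9.01 TPM in BLA and 21.8 ± 5.23 TPM in GC and was not called (-0.78 to 0.27 at 2 SE).

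Of the 7 factors of upper layers and layer 4, 5 were lower in BLA, 1 was higher and 1 was not called. The shares over all genes tested were 15.2% lower and 4.12% higher. Pou3f1, Pou3f2 and Pou3f3, among those lower, averaged under 1 TPM in BLA, passed the filter only through GC and could only come out lower. Rorb, the orphan nuclear receptor that marks layer 4, had 0.08, 0.83 and 5.54 TPM in BLA and 19.4, 23.4 and 41.5 TPM in GC (-3.57 ± 0.33, adjusted p = 3.22e-07). The POU factors Pou3f1, Pou3f2 and Pou3f3, which act in the production and migration of upper layer neurons, were near 0 in BLA. Pou3f1 was listed at 0 in 7 of 8 BLA libraries and at 0.09 TPM in the other, against 18.9, 24.9 and 32.1 TPM in GC (-4.66 ± 0.24, adjusted p = 2.29e-10). Pou3f3 had 0, 0.03 and 3.83 TPM in BLA and 11.6, 17.3 and 23.6 TPM in GC (-3.81 ± 0.34, adjusted p = 1.97e-07), and Pou3f2 had 0, 0.04 and 0.11 TPM in BLA and 2.76, 3.75 and 7.76 TPM in GC (-2.33 ± 0.27, adjusted p = 5.08e-06). None of the 3 overlapped between regions, which adds little for genes that could only come out lower. For genes this close to 0 the size of the fitted difference depends on the pseudocount.

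Of the cut homeobox factors Cux1 and Cux2, both known from upper layer dendrites and spines, only Cux1 was called. The log2 ratio of Cux1 over Cux2 overlapped between regions (-4.06 to 0.67 in BLA and -0.52 to 0.98 in GC), and no test compared these genes. Cux1 had 0.91, 2.08 and 8.85 TPM in BLA against 20.3, 26.4 and 40.4 TPM in GC (-2.98 ± 0.32, adjusted p = 1.86e-06). Cux2 had 2.91, 14.8 and 45.9 TPM in BLA against 16, 26.4 and 40.6 TPM in GC and was not called (-1.37 to -0.01 at 2 SE, adjusted p = 0.173), and its direction turned in taste control libraries only (0.11). Bhlhe22, a basic helix-loop-helix factor of area identity, was the upper layer factor that was higher in BLA, with 14.7, 24.3 and 53.4 TPM, against 3, 5.25 and 11.4 TPM in GC (2.02 ± 0.30, adjusted p = 9.17e-05). No BLA library overlapped a GC library for Cux1 or Bhlhe22.

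**Figure D3:**
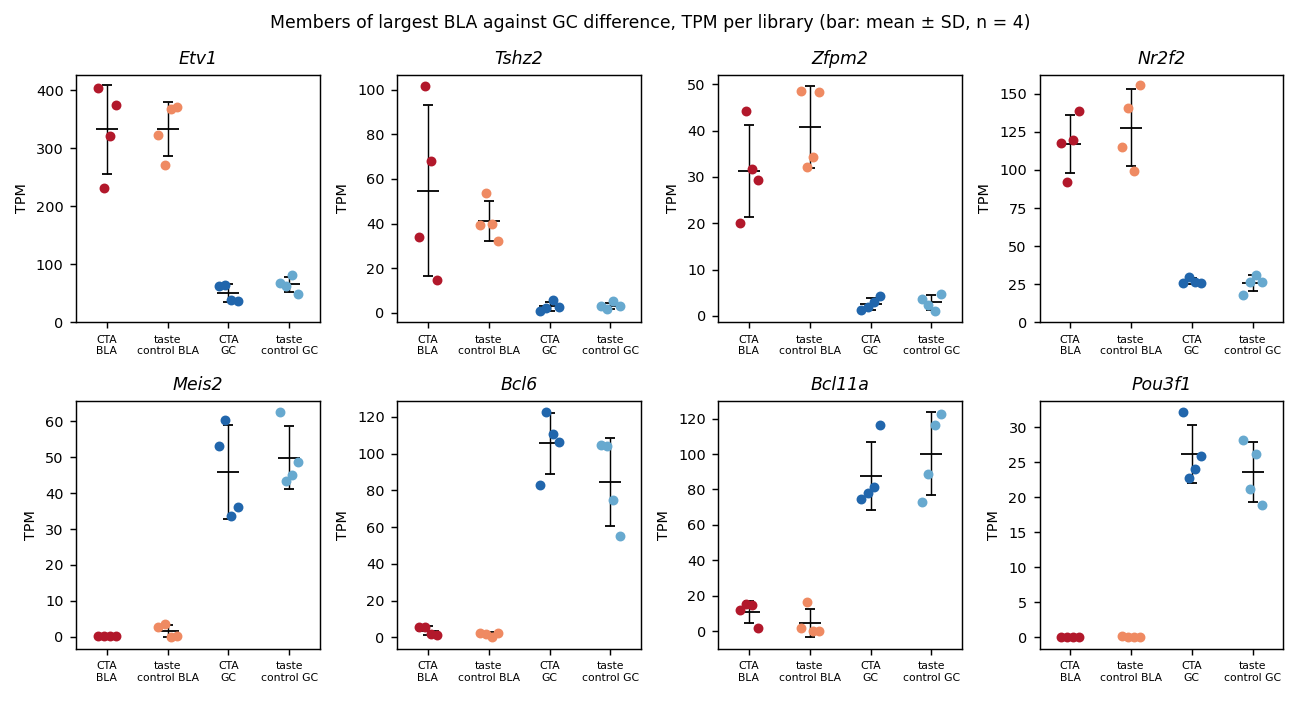
TPM per library (points, with mean ± SD, n = 4 per group) for the 4 members of largest difference in each direction. Etv1, Tshz2, Zfpm2 and Nr2f2 are higher in all 8 BLA libraries, and Meis2, Bcl6, Bcl11a and Pou3f1 in all 8 GC libraries, whichever training the mice had.

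The pallial patterning factors gave 2 higher, 2 lower and 2 not called of 6. Nr2f2 and Nr2f1 are COUP nuclear receptors that pattern caudal cortex and, for Nr2f2, amygdala. Nr2f2 had 92.2, 119 and 156 TPM in BLA and 18.1, 26.7 and 30.7 TPM in GC, a 4.65-fold difference of means (2.17 ± 0.15, adjusted p = 1.27e-08). Nr2f1 had 31.4, 50.2 and 67.7 TPM in BLA and 17.2, 21.3 and 30.2 TPM in GC (1.05 ± 0.21, adjusted p = 0.00122). Neither overlapped, although for Nr2f1 the nearest libraries were 31.4 TPM in BLA and 30.2 TPM in GC, and Nr2f1 was not called in CTA libraries only (log2 difference 1).

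Meis2, a TALE homeobox factor also known from striatal precursors, had the largest fitted difference of the members on the log2(TPM + 1) scale. It had 0.02, 0.11 and 3.58 TPM in BLA and 33.7, 46.9 and 62.6 TPM in GC (-4.98 ± 0.32, adjusted p = 4.29e-09). Meis2 averaged 0.84 TPM in BLA and passed the filter only through GC, so it had to differ. Its rank is not fixed, as the alternative fits reached -6.98 for Meis2 and -7.83 for Pou3f1. Foxp1, a forkhead factor of cortex and striatum, varied within both regions, with 11.2, 31.1 and 84 TPM in BLA and 80, 118 and 210.0 TPM in GC (-2.01 ± 0.36, adjusted p = 0.000556), and the highest BLA library was above the lowest GC library. Central amygdala and striatal markers, the nearby cells that share Meis2 and Foxp1, summed to 87 to 200.04 TPM in BLA and 146 to 256 TPM in GC, ranges that overlapped. Of 11 tested, 0 were higher and 3 lower in BLA, against 4.12% and 15.2% of all genes tested. The part of these markers in the result was not tested. Emx1, a pallial homeobox gene, averaged 5.01 ± 4.80 TPM in BLA and 7.52 ± 3.83 TPM in GC and was not called. Tfap2d, an AP-2 factor known from the developing midbrain, averaged 12.3 ± 10.4 TPM in BLA and 5.18 ± 3.71 TPM in GC and was not called either (adjusted p = 0.151), though it was after quantile normalization (1.32) and in CTA libraries only (1.95). In taste control libraries only its direction turned (-0.26), with 3.89 ± 2.15 TPM in BLA and 5.59 ± 4.91 TPM in GC (SD, n = 4 each).

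Of the 3 LIM proteins, both LIM-only cofactors were higher in BLA. Lmo3 had 401, 503 and 600 TPM in BLA and 170, 230 and 307 TPM in GC, with no overlap (1.10 ± 0.13, adjusted p = 5.08e-06). Lmo4, which helps set the boundary between subcerebral and callosal fates, had 407, 580 and 908 TPM in BLA and 304, 412 and 537 TPM in GC, ranges that overlapped (0.61 ± 0.15, adjusted p = 0.00614). Lmo4 was no longer called in the CTA libraries alone (0.54) or the taste control libraries alone (0.67). Lhx2, a LIM homeobox gene of cortical patterning, averaged 10.7 ± 6.46 TPM in BLA and 4.10 ± 3.60 TPM in GC and was not called (1.19, 0.23 to 2.15 at 2 SE), though it was called when taste control BLA 3, its lowest BLA library at 1.19 TPM, was left out (1.48), in CTA libraries only (1.77) and after quantile normalization (1.68).

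A mixed group of 7 factors held the Neurod factors, Mef2c, Nfia, Nfib and Id2, of which none was higher in BLA and 5 were lower. Neurod6 and Neurod2, helix-loop-helix factors of postmitotic excitatory neurons, were abundant in both regions and not called, at 173 ± 55.2 and 61.4 ± 29.1 TPM in BLA and 174 ± 22 and 76.5 ± 15 TPM in GC. For Neurod6 the difference of -0.06 ran from -0.40 to 0.27 at 2 SE, and its sign turned with median-ratio rescaling (0.16). Neurod1, which acts earlier in the same series, had 0.11, 1.23 and 3.91 TPM in BLA and 3.43, 6.36 and 17.1 TPM in GC (-1.82 ± 0.38, adjusted p = 0.00194). Its ranges touched between 3.43 and 3.91 TPM, and it was not called in CTA libraries only (-1.79) or taste control libraries only (-1.85). Mef2c, a MADS-box factor of activity-dependent synapse number, had 149, 211 and 253 TPM in BLA and 250, 449 and 479 TPM in GC (-0.90 ± 0.15, adjusted p = 0.00035), and was not called in CTA libraries only (-0.86).

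Nfia and Nfib, nuclear factor I genes that act in deep layer neurons and in gliogenesis, were both lower in BLA. Nfia had 0.42, 5.12 and 10 TPM in BLA and 37.7, 49.1 and 112 TPM in GC (-3.32 ± 0.35, adjusted p = 1.47e-06), and Nfib had 20.2, 24.8 and 48.8 TPM in BLA and 60, 81.3 and 91.6 TPM in GC (-1.37 ± 0.19, adjusted p = 4.14e-05). Id2, an inhibitor of helix-loop-helix factors, had 52.3, 83.4 and 139 TPM in BLA and 177, 293 and 362 TPM in GC (-1.76 ± 0.19, adjusted p = 2.40e-06). The 2 regions did not overlap for any of these 3 genes. Glial markers were compared between regions as well. The 10 astrocyte markers summed to 232 to 336 TPM in BLA and 314 to 592 TPM in GC, with 1 higher and 6 lower of 10. Some of the lower ones, such as Aqp4 and Gjb6, averaged under 1 TPM in BLA and passed the filter only through GC. Such genes could only come out lower. The 13 oligodendrocyte markers summed to 14.8 to 151 TPM in BLA and 112 to 446 TPM in GC, with 0 higher and 1 lower of 9 tested. The summed ranges of the regions overlapped for both astrocyte and oligodendrocyte markers. Of all genes tested, 4.12% were higher and 15.2% lower. Aldoc, a glycolytic enzyme of astrocytes, had 0.62 to 33.8 TPM in BLA and 64.2 to 156 TPM in GC, with no overlap (-4.20 ± 0.55), whereas S100b, a calcium-binding protein of glia, was the marker that was higher in BLA, at 55.1 to 129 TPM in BLA and 25 to 53 TPM in GC (1.29 ± 0.21). Gfap had 0 to 1.72 TPM in BLA and 0.04 to 12.9 TPM in GC and was not called, and the part of glial RNA in the Nfia, Nfib and Id2 results was not tested.

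Tshz2 and Tshz3, teashirt zinc finger factors, went in opposite directions. Tshz2 had 14.7, 39.5 and 102 TPM in BLA and 0.87, 2.83 and 5.67 TPM in GC (3.53 ± 0.36, adjusted p = 1.20e-06), the largest positive difference of the members. Tshz3, which in mice is needed by corticostriatal neurons, had 2.69, 8.99 and 13.3 TPM in BLA and 19.2, 26.2 and 32.8 TPM in GC (-1.52 ± 0.26, adjusted p = 0.000334). Neither gene overlapped between regions. Satb1, a chromatin organizer, stood at 54.4 ± 10.7 TPM in BLA and 43.5 ± 7.36 TPM in GC and was not called (-0.01 to 0.64 at 2 SE) except after median-ratio rescaling (0.53).

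Within each library, the ratio of paralogs describes the balance within a family. It restates the levels of the single genes and is given as a description with no test. Of 13 pairs in 9 families, 5 did not overlap between BLA and GC, and no other gene pairs were taken for comparison. Tshz2 over Tshz3 had a log2 ratio of 0.82 to 3.46 in BLA and -3.57 to -1.68 in GC, so that Tshz2 was the higher in all 8 BLA libraries and Tshz3 in all 8 GC libraries. Bcl11a over Bcl11b was -5.02 to -0.62 in BLA and 0.51 to 1.97 in GC, the other pair in which the leading member changed in every library. Nr2f1 over Nr2f2 was -1.65 to -0.99 in BLA, where Nr2f2 led in all libraries, and -0.60 to 0.23 in GC, where the pair was near balance. Nfia over Nfib was -3.90 to -1.84 in BLA and -1.16 to 0.43 in GC, and Pou3f1 over Pou3f2 was -0.15 to 0.11 in BLA and 1.47 to 2.81 in GC. Pou3f1 and Pou3f2 were both near 0 in BLA, where the pseudocount holds their ratio near 0. Their BLA ratio does not show which of them led there. Foxp1 exceeded Foxp2 in every library of both regions, by a median of 4.95 in BLA and 5.16 in GC.

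**Figure D4:**
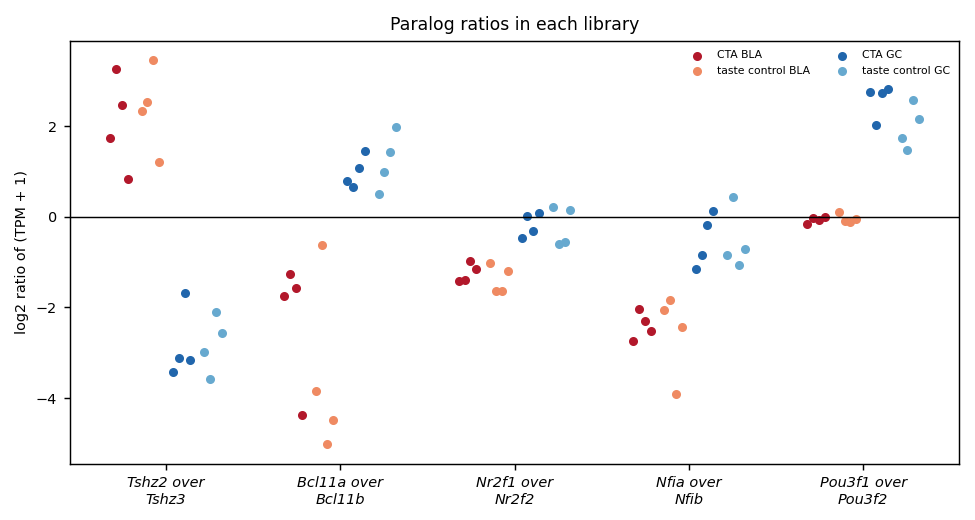
Log2 ratio of (TPM + 1) of the first over the second paralog in each library, for the 5 pairs whose BLA and GC libraries did not overlap. Tshz2 over Tshz3 lies above 0 in the BLA libraries and below 0 in the GC libraries, and Bcl11a over Bcl11b does the opposite. Pou3f1 and Pou3f2 were both near 0 TPM in BLA, where the pseudocount holds their ratio near 0.

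Family sums are given with no test. The BLA and GC libraries did not overlap for the sums of the Nr2f, Lmo, Bcl11, Nfi and Pou3f families. They overlapped for those of the Cux, Foxp, Tshz and Neurod families. The Nr2f pair summed to a median of 175 TPM in BLA and 49.6 TPM in GC, and the Lmo pair to 1094 TPM in BLA and 656 TPM in GC. The Bcl11 pair summed to 47.7 TPM in BLA and 130 TPM in GC, and the Pou3f factors to 0.1 TPM in BLA and 47.3 TPM in GC. The Neurod factors summed to 228 TPM in BLA and 263 TPM in GC.

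Libraries of 1 region varied more in BLA than in GC, for the members as for other genes. The median SD of log2(TPM + 1), pooled within training groups over 8 libraries, was 0.542 in BLA and 0.338 in GC for the members, against 0.672 in BLA and 0.421 in GC for all genes tested, and 25 of the 37 members (67.6%) had the larger SD in BLA, against 81% of all genes tested. The most even abundant members were Lmo3 in BLA, with an SD of 0.19, and Neurod6 and Tbr1 in GC, each with 0.19.

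Exons of 13 members overlap those of another annotated gene, 12 of them with a gene on the opposite strand (GENCODE annotation of GRCm38), and the counting is not stated to use strand, so reads of such pairs may be mixed. The 13 are Satb1, Bcl11a, Cux1, Sox5, Foxp1, Pou3f1, Bcl6, Tshz2, Neurod1, Nfia, Nr2f1, Nr2f2 and Tfap2d, of which 10 were called between regions. A630075F10Rik, antisense to Tshz2, had 8.07 to 15.7 TPM in BLA and 9.33 to 15 TPM in GC, while Tshz2 differed without overlap. B130024G19Rik, antisense to Nr2f2, had 3.13 to 37.7 TPM in BLA and 3.40 to 7.89 TPM in GC, and A830082K12Rik, antisense to Nr2f1, had 21.6 to 64.7 TPM in BLA and 25.6 to 46.2 TPM in GC, so Nr2f1 and Nr2f2 are uncertain to that extent.

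Other transcription factors of forebrain projection neurons were also mostly lower in BLA. Of 39 tested, 2 were higher and 21 lower, with a median log2 difference of -0.90. Of all genes tested, 4.12% were higher and 15.2% lower, with a median of -0.23. Some of the 21 averaged under 1 TPM in BLA, passed the filter only through GC and so could only come out lower. The lower ones of smallest p included Nr4a2, an orphan nuclear receptor of deep insular cortex and claustrum, at 38.1 ± 31.5 TPM in BLA and 479 ± 54.1 TPM in GC (-3.94 ± 0.29, adjusted p = 2.81e-08). Etv5, Tle3 and Mkx followed. The higher ones were Tle1, a Groucho corepressor, at 43.9 ± 18.5 TPM in BLA and 10.9 ± 3.98 TPM in GC (1.89 ± 0.25), and Zbtb18, a zinc finger repressor, at 365 ± 91.3 TPM in BLA and 226 ± 43.3 TPM in GC (0.67 ± 0.15). Of the corepressors, Tle1 was called higher in BLA and Tle3 lower (2.79 ± 1.44 TPM in BLA and 17.3 ± 2.65 TPM in GC), while Tle4 was not called. These genes were not tested against each other.

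Markers of layer and cell type that are not transcription factors gave the setting of these values. Deep layer cortex markers had 3 higher and 8 lower of 13 tested, and upper layer and layer 4 markers 2 higher and 4 lower of 9. The shares over all genes tested were 4.12% higher and 15.2% lower. Genes averaging under 1 TPM in BLA passed the filter only through GC and could only come out lower. Among them were the deep layer markers Fam84b, Slco2a1, Syt6 and Ctgf. The upper layer marker Otof, under 1 TPM in GC, could only come out higher. Claustrum and endopiriform markers had 1 higher (Nnat) and 4 lower of 6, with Synpr at 4.06 to 28.7 TPM in BLA and 194 to 315 TPM in GC and Gnb4 at 3.20 to 23.7 TPM in BLA and 108 to 200.5 TPM in GC. RNA of Synpr and Gnb4 was thus present in GC libraries of neurons that the study places in layer 5, a fact that bears on the label. Which cells gave this RNA was not tested, nor was its part in the results. Projection neuron markers had 5 higher and 4 lower of 12, interneuron markers 3 higher and 5 lower of 14, interneuron transcription factors 0 higher and 1 lower of 2, microglia markers 0 of 6 in either direction, and endothelial and mural markers 0 higher and 1 lower of 5. Pvalb, the marker of fast-spiking interneurons, was listed at 0 in all 8 BLA libraries and ranged from 2.05 to 81 TPM in GC. Pvalb, Reln and the interneuron transcription factor Maf passed the filter only through GC, and Calb2 only through BLA. The direction of their calls was therefore fixed. Among interneuron transcription factors Lhx8 was listed at 0 in all 16 libraries and Dlx6 stayed at 0 to 0.03 TPM in BLA and 0 to 0.15 TPM in GC.

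CTA training was then compared with taste control within each region, the question for which the libraries were made. In BLA, 0 of the 32 members tested and 0 of 14611 genes (0%) were called by limma at an adjusted p under 0.05. At an unadjusted p under 0.05 there were 2 members and 568 genes (3.89%). The other 5 members averaged under 1 TPM in BLA and were not tested there. In GC, 0 of 37 members and 0 of 15278 genes (0%) were called, and 0 members and 573 genes had an unadjusted p under 0.05. The median log2 difference of the members was 0.002 in BLA and -0.115 in GC, against 0.022 and -0.008 over all genes.

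The 4 CTA and 4 taste control libraries did not overlap for 2 members in BLA, both higher in CTA, against 2.38% of all genes tested (1.31% higher and 1.07% lower). Tfap2d had 31.1, 15, 22.2 and 14.2 TPM in CTA BLA and 4.74, 5.95, 3.96 and 0.91 TPM in taste control BLA. Every CTA library was above every taste control library, and the means differed 5.30-fold (2.23 ± 0.55 on the log2 scale, limma adjusted p = 0.999, unadjusted p = 0.00137). The two-sided exact permutation p was 0.0286, the smallest that 4 libraries against 4 can give. Any groups of this size without overlap give that p, so it adds nothing to the lack of overlap. In GC the same gene had 2.85, 3.22, 8.80 and 4.16 TPM in CTA libraries and 2.79, 1.12, 6.22 and 12.2 TPM in taste control libraries, which overlapped.

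Bcl11b had 41.3, 37.7, 46.5 and 52 TPM in CTA BLA and 36.2, 26.1, 33.1 and 22.8 TPM in taste control BLA. The lowest CTA library (37.7 TPM) stood just above the highest taste control library (36.2 TPM), and the means differed 1.5-fold (0.58 ± 0.30, adjusted p = 0.999, exact permutation p = 0.0286). Cux2 had 8.45, 18.7, 2.91 and 14.7 TPM in CTA BLA and 14.9, 45.9, 14.7 and 37.8 TPM in taste control BLA (-1.33 ± 0.58, adjusted p = 0.999, unadjusted p = 0.0408). Its groups overlapped.

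The members next in order of p in BLA were Bcl11a and Rorb. Bcl11a had 11.7, 15.1, 15 and 1.54 TPM in CTA BLA and 1.60, 16.6, 0.05 and 0.06 TPM in taste control BLA (1.84 ± 0.93, adjusted p = 0.999), so its uneven level in BLA did not follow training in every library. Rorb had 1.09, 0.08, 0.12 and 0.57 TPM in CTA BLA and 5.54, 1.68, 4.60 and 0.30 TPM in taste control BLA (-1.25 ± 0.66, adjusted p = 0.999). Over the 37 members in BLA the exact permutation p was at its smallest for Tfap2d and Bcl11b, as it must be for groups that do not overlap. Neither was called over all genes.

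**Figure D5:**
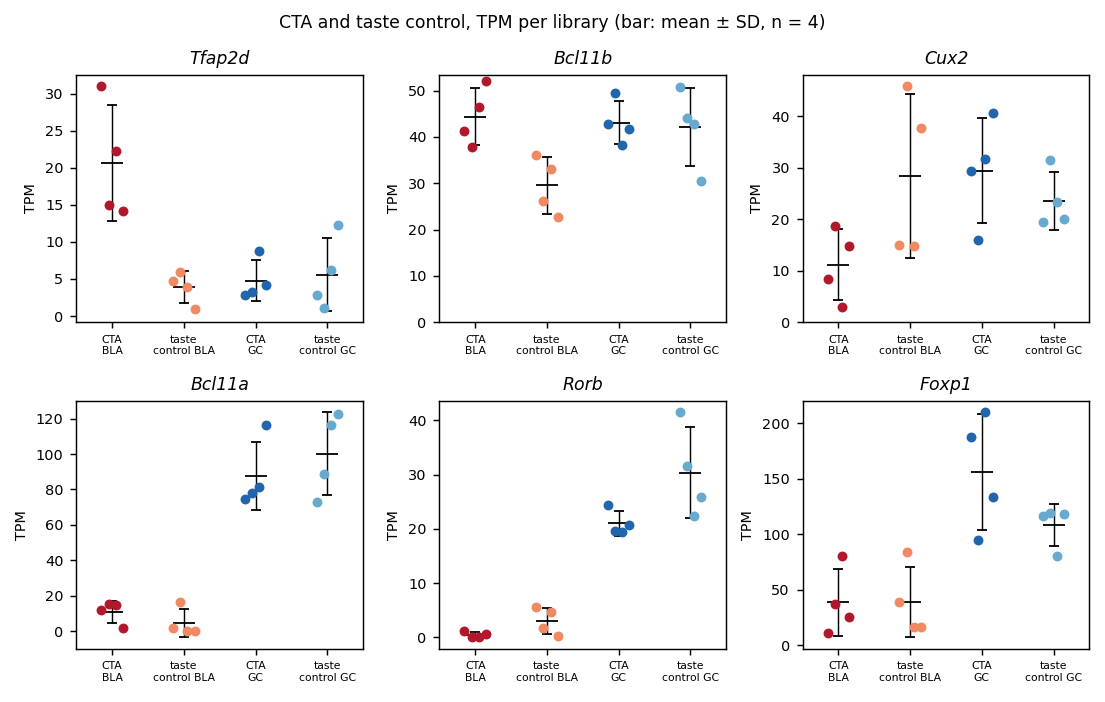
TPM per library (points, with mean ± SD, n = 4 per group) for 6 members with small p in a training comparison. The CTA and taste control libraries of BLA do not overlap for Tfap2d and Bcl11b and do for Cux2, Bcl11a, Rorb and Foxp1, and those of GC overlap for all 6.

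In GC the CTA and taste control libraries overlapped for all 37 members, whereas 2.21% of all genes tested did not (1.01% higher and 1.19% lower). The 5 members of smallest p were Rorb, Foxp1, Etv1, Bcl6 and Tle4. Rorb had 24.4, 19.5, 19.4 and 20.8 TPM in CTA GC and 41.5, 31.6, 22.4 and 25.9 TPM in taste control GC (-0.48 ± 0.24, adjusted p = 1, exact permutation p = 0.0571). Foxp1 had 187, 94.4, 210.0 and 133 TPM in CTA GC and 116, 119, 80 and 118 TPM in taste control GC (0.48 ± 0.24, adjusted p = 1). Both overlapped, and both differed by less than 2-fold.

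Etv1 averaged 50.2 ± 15.1 TPM in CTA GC and 65.2 ± 13.2 TPM in taste control GC (SD, n = 4), and Bcl6 averaged 106 ± 16.7 TPM in CTA GC and 84.6 ± 24 TPM in taste control GC. Tle4 averaged 19.1 ± 3.71 TPM in CTA GC and 24.6 ± 5.42 TPM in taste control GC. None of these was called. In BLA, Etv1 averaged 332 ± 76 TPM in CTA and 333 ± 47 TPM in taste control libraries.

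The change with training was compared between regions by a region by training term fitted to the 16 libraries, which called 0 of the 37 members and 0 of 15191 genes (0%). At an unadjusted p under 0.05 there were 601 genes (3.96%) and 2 members, Tfap2d (2.20 ± 0.79 log2 units more change in BLA than in GC, unadjusted p = 0.012, limma adjusted p = 1) and Cux2 (-1.59 ± 0.68, unadjusted p = 0.0302, adjusted p = 1). Of the members, 5 (Foxp2, Pou3f1, Pou3f2, Pou3f3 and Meis2) averaged 0.01 to 0.84 TPM in BLA and entered this fit only through their GC levels, so it says nothing of their response in BLA. A difference in response between BLApn and GC neurons was not shown for any of the other 32.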

How the data were processed

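The 16 libraries (4 CTA and 4 taste control libraries in each of BLA and GC) were grouped by their titles. The authors aligned trimmed single-ended reads to the mouse genome with TopHat, and the submitters' processing notes name mm10; versions, annotation and strand are not given in the sources used here. They converted unique reads with scripts of their own to the TPM values deposited in 2 tables. The tables also hold the authors' group means, ratios and p-values, which were not used, and no column of single libraries was left out (0). Pvalb+ neurons were not analysed here.

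TPM were taken as log2(TPM + 1), genes averaging under 1 TPM in the libraries of a fit were dropped, and limma 3.58.1 in R 4.3.3 was fitted with a variance trend over all remaining genes, with Benjamini-Hochberg adjustment and a call at 0.05. BLA was compared with GC over 4 group means, CTA with taste control within a region, and the 2 changes by the region by training term. The fit was tested on simulated data. For single members under training, a two-sided exact permutation p was taken from all 70 arrangements of the libraries. Labels describe groups of 4 mice without tying a library to a mouse, so p-values measure the spread between these libraries, which may be technical. The study states a range of group sizes for its GC populations together, and all 8 labelled YFP+ GC libraries were used. TPM gives no depth, and precision is known only from that spread.

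All 37 members were named. Per-library values were given for members called between regions, the 5 members of smallest p per region under training and any whose groups did not overlap. From other transcription factors, up to 5 higher and 5 lower genes of smallest p could be named, and from each marker list up to 4. Gad1, Gad2, Slc32a1, Sst, Gfap, Lhx8 and Dlx6 were named outside this rule as defining markers, after their values were seen. So were Cck and Npy, as the most abundant of the interneuron markers. A gene of the other transcription factors is not reported here. Members, lists and tests were chosen with earlier results of these data known. Alternatives changed the pseudocount, the filter, the scaling, the trend, the weights, the block, the libraries and the criteria. Drawing used Python 3.11.15 and matplotlib 3.10.9.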

Additional observations from a re-analysis of the deposited data

Results flagged for a closer look

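In 9 of 138 sets of 4 libraries (a member in a group, with a mean of at least 1 TPM), the highest or lowest library lay far from the other libraries of its group, where chance alone sets apart about 1 in 20. In the taste control BLA libraries, Bcl11a had 16.6 TPM in replicate 2, against 0.05 to 1.60 TPM in the others, and Otx1 had 1.87 TPM in the same library, against 0.91 to 1.02 TPM. Fezf2 was low in taste control BLA 3, at 51.1 TPM against 97 to 106 TPM. Lmo3 was low in CTA BLA 2, at 429 TPM against 496 to 505 TPM.

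In the CTA GC libraries, Sox5 (58.4 TPM against 43.3 to 45.5 TPM) and Bhlhe22 (11.4 TPM against 3 to 4.27 TPM) were both high in replicate 2, Lmo4 was low in replicate 3 (304 TPM against 405 to 417 TPM), and Bcl11a was high in replicate 4 (116 TPM against 74.6 to 81.3 TPM). Foxp1 was low in taste control GC 3, at 80 TPM against 116 to 119 TPM. No member changed with training in opposite directions without overlap in the 2 regions (0 found).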

How the results depend on the processing

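Of the 27 members called between BLA and GC, 20 stayed called in every alternative fit that tested them, 7 were lost in at least 1 (Fezf2, Foxp2, Lmo4, Mef2c, Neurod1, Nr2f1 and Otx1), and 0 changed sign. These numbers leave out the alternative of a 2-fold change, unadjusted p under 0.01 and 30 TPM, which called fewer members. Genes called numbered 1379 (14 members) at a mean of at least 30 TPM, 994 in CTA libraries only, 1203 in taste control libraries only, and 366 (11 members) by a 2-fold change, unadjusted p under 0.01 and 30 TPM. Those criteria gave 19 genes for training in BLA and 3 in GC, with no member. Leaving out each library gave 2471 to 2999 genes and 27 to 28 members between regions, 0 to 0 for training in BLA and for the region by training term, and 0 to 1 gene for training in GC (1 without CTA GC 2). Members not called changed sign in 6 fits: Neurod6 at 0.16 with median-ratio rescaling and at 0.01 without CTA BLA 2 or 0 without taste control BLA 3 (-0.19 to 0.01 over all libraries left out), Bcl11b at 0.04 with CTA libraries only, and Cux2 at 0.11 and Tfap2d at -0.26 with taste control libraries only. The cause of these changes was not tested, beyond the fewer genes or libraries of some fits.

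Same-numbered libraries did not deviate together (correlations of -0.105 to 0.132), so the numbers were not taken as pairs. The replicate block gave 2458 genes and 27 members between regions, and 0 for training in either region and for the region by training term. Under the block, with 8 higher and 19 lower, the split of the members was as without it.

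TPM hides depth, so low members (Foxp2, Otx1, Pou3f2, Rorb in BLA) cannot be given counting errors.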
